A study of Homo sapiens with 8 samples.

Results

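The 10 long noncoding genes described here were chosen by name as hosts of small nucleolar RNAs (snoRNAs) or as short noncoding genes of the same kind: SNHG1, SNHG5, SNHG6, SNHG8, SNHG12, SNHG15, GAS5, ZFAS1, DANCR and EPB41L4A-AS1. All 10 had at least 1 splicing event among the 12047 gene symbols of the splicing tables, with 370 of the 89379 events of whole cells and 148 of the 43559 events of the cytoplasm. The cells were U2OS, a human osteosarcoma line, transfected for 48 h with 20 nM of an siRNA against EGFP, a fluorescent reporter used as the control target (EGFP siRNA), or of the siRNA CHERP#2 (CHERP siRNA). CHERP is a nuclear protein that binds splicing factors of the U2 class. Poly(A) RNA was sequenced from whole cells and from the supernatant of a detergent lysis (cytoplasm), in biological duplicate for each siRNA and fraction, 8 libraries in all. A single siRNA represents CHERP loss, so an effect of its sequence on other targets cannot be told apart from the loss of CHERP.

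A snoRNA host gene is transcribed by RNA polymerase II and spliced, and the snoRNA is trimmed out of an excised intron. C/D box snoRNAs guide methylation of ribosomal RNA, and H/ACA box snoRNAs guide its pseudouridylation. The exons that are left behind are joined into a polyadenylated RNA with short reading frames, which in several of these genes is degraded by nonsense-mediated decay (NMD) once ribosomes read it. The splicing of an intron and the decay of the joined exons therefore both set how much of each form a library holds.

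RefSeq (GRCh38.p14) names 34 snoRNAs inside the 10 genes. GAS5 holds 11 of them and SNHG1 holds 9, mostly of the C/D class. SNHG12 holds 4, ZFAS1 3 and SNHG5 2, and SNHG6, SNHG8, SNHG15, DANCR and EPB41L4A-AS1 hold 1 each. In GENCODE on GRCh37, the build of the deposited coordinates (hg19), GAS5 lies on chromosome 1 from 173827697 to 173838020, minus strand, and SNHG1 on chromosome 11 from 62619450 to 62623425, minus strand. SNHG1, SNHG5 and SNHG15 overlap no annotated gene on the opposite strand, and the other 7 overlap between 1 and 3, such as ZBTB37 at GAS5 and ZNFX1 at ZFAS1. The libraries were made with a stranded kit, but the strand setting of the counting is not given in the sources used here.

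The results below turn on a few short introns and exons. GAS5 intron 7 is in transcript GAS5-202 (chr1:173833645-173833812, minus strand, GRCh37). SNHG1 intron 5 is in SNHG1-202 (chr11:62621306-62621489, minus strand). Against the spliced form of the same intron, both were less retained in whole cells treated with CHERP siRNA. The 181 nt intron of GAS5 (intron 9 of GAS5-201, chr1:173833214-173833394) is shown beside them because its retention did not pass the test. Each runs 5′ to 3′ from the donor gt to the acceptor ag. Capitals mark a C box (TGATGA) followed by a D box (CTGA) 30 to 150 nt downstream, searched on the transcribed strand. Where several pairs fitted, the last C box and the furthest D box are marked. In SNHG1 intron 5 another CTGA lies nearer to the C box within this window and is left in lower case.
GAS5 intron 7: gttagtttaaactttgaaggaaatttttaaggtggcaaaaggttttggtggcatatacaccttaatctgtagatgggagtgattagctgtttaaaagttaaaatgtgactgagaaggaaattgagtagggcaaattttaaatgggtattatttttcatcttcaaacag
GAS5 181 nt intron: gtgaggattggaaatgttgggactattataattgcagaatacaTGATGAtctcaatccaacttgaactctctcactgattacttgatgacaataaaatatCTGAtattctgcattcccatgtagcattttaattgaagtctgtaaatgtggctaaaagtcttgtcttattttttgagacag
SNHG1 intron 5: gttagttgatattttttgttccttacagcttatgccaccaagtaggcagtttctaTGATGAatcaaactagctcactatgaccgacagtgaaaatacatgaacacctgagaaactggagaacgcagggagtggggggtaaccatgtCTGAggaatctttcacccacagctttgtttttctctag
A second GAS5 intron with lower retention is 524 nt long (chr1:173833843-173834366, intron 8 of GAS5-201). Its donor and acceptor follow, with the exon bases in capitals.
GAS5 524 nt donor: AAGgtatag
GAS5 524 nt acceptor: gtattgtcccttaatttcagGAC
The pair of boxes was found in 10 of the 15 retained introns of the 10 genes that have no annotated exon inside. The share was 4.94% among 526 retained introns of 150 to 600 nt of all genes. These lay on the chromosomes searched (1, 4, 5, 6, 7, 11 and 20). The 10 genes were chosen as snoRNA hosts, so their share was not independent of that choice. Overlapping introns, such as those of 188 and 227 nt in GAS5, were counted separately. The 15 also include a 78 nt intron of SNHG5, shorter than that range. GAS5 intron 7 held no such pair, and the GAS5 524 nt intron did.

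Reads on the splicing events summed to between 29409956 and 35664568 per library in whole cells and between 5370756 and 6580099 in the cytoplasm, so cytoplasmic values rest on fewer reads. The cytoplasmic tables also use a shorter junction length (73 nt against 144 nt), which points to another read length, and fraction, depth and length cannot be told apart in any contrast between fractions. A read is counted again in each event that it touches. CHERP itself, the target, had 103 and 77 event reads in the EGFP libraries of whole cells and 3 and 10 in the CHERP libraries (log2 fold change -3.46 ± 0.57 (SE), limma adjusted p = 0.00147). In the cytoplasm it had 31 and 21 against 3 and 4 reads, under the filter on low reads. Of 6 mesenchymal markers VIM and FN1 were tested, with a summed abundance of 245 to 247 with EGFP siRNA and 282 to 294 with CHERP siRNA in whole cells, and of 4 epithelial markers KRT8, which fell in both fractions (38.8 to 51.9 against 30.6 to 31.2 in whole cells). The part of these shifts in the values below was not tested. The 3 blood markers and the 4 nuclear RNAs listed had no event, so nuclear carry-over was not measured by them.

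Summed over the 10 genes, their RNA took up more of the libraries after CHERP siRNA, and GAS5 held most of that sum. Their events held 0.535% and 0.639% of all event reads in the EGFP libraries of whole cells and 0.856% and 0.860% in the CHERP libraries. In the cytoplasm the shares were 0.288% and 0.280% against 0.510% and 0.529%. GAS5 alone held between 78.06% and 80.01% of these reads in whole cells and between 68.1% and 75.0% in the cytoplasm. Without GAS5 the shares were 0.117% and 0.132% against 0.177% and 0.172% in whole cells, and 0.0919% and 0.0847% against 0.127% and 0.134% in the cytoplasm. The groups did not overlap in either fraction with or without GAS5. EPB41L4A-AS1 in whole cells and cytoplasm, and SNHG12 in the cytoplasm, did not have the higher mean with CHERP siRNA. These shares and the abundances below are relative to the other RNAs of a library, and fewer RNA molecules per cell of all other genes could not be told apart from more of these.

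Abundance was taken as reads per effective nucleotide, summed over the cassette exon (SE), alternative 5′ splice site (A5SS) and alternative 3′ splice site (A3SS) events of a gene and scaled between libraries by median ratios. With CHERP siRNA it was higher for 6 of the 10 genes in whole cells and for 7 of the 9 with events in the cytoplasm, and lower for none of them (limma, adjusted p under 0.05). Over all genes tested, 18.8% of 9660 were called higher in whole cells and 24.6% of 7293 in the cytoplasm. The median log2 fold change was 0.52 over the 10 genes in whole cells against 0.01 over all genes. In the cytoplasm it was 0.70 over 9 genes against -0.01.

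Among the C/D box hosts, GAS5, named for its rise in growth-arrested cells, had a summed abundance of 253 and 322 scaled reads per nucleotide in the EGFP libraries of whole cells and 460 and 463 in the CHERP libraries. The rise was 0.69 ± 0.12 (SE) on the log2 scale (limma adjusted p = 0.00189). In the cytoplasm GAS5 abundance went from 38.0 and 38.3 to 78.8 and 81.4, a rise of 1.07 ± 0.05 (limma adjusted p = 5.03e-08). Both GAS5 values of the CHERP libraries lay above both EGFP values in each fraction, and in the cytoplasm the duplicates lay far closer to each other than to the other siRNA. ZFAS1, which starts next to the promoter of ZNFX1 on the other strand, had an abundance of 27.4 and 32.2 in whole cells with EGFP siRNA, against 51.8 and 46.5 with CHERP siRNA (log2 fold change 0.72 ± 0.11, limma adjusted p = 0.000971). In the cytoplasm ZFAS1 went from 11.4 and 11.6 to 18.5 and 20.1 (0.75 ± 0.07, limma adjusted p = 5.66e-06). The log2 fold changes of ZFAS1 in the fractions lay within their standard errors of each other.

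SNHG1 moved least among the genes that were called in both fractions. Its abundance in whole cells was 50.8 and 64.3 with EGFP siRNA, against 74.3 and 76.5 with CHERP siRNA (log2 fold change 0.40 ± 0.12, limma adjusted p = 0.0260). This call was lost when either CHERP library was left out (adjusted p = 0.104 and 0.1501), and the log2 fold change was 0.22 without the first EGFP library (adjusted p = 0.00872). In the cytoplasm SNHG1 went from 7.42 and 6.74 to 9.07 and 8.62 (0.32 ± 0.08, limma adjusted p = 0.00611). SNHG6, the host of SNORD87 on chromosome 8 (67832796 to 67838633, minus strand), rose by 0.65 ± 0.14 in whole cells, from 12.1 and 15.5 to 23.05 and 19.98 (limma adjusted p = 0.00503). SNHG6 rose by 0.80 ± 0.10 in the cytoplasm, from 7.46 and 6.68 to 11.1 and 13.6 (limma adjusted p = 5.36e-05). SNHG5, the host of SNORD50A and SNORD50B, had 6.51 and 8.51 against 9.89 and 9.41 in whole cells, a log2 fold change of 0.37 ± 0.14 that did not pass (limma adjusted p = 0.0626). It was 0.17 without the first EGFP library, and 0.57 with a call without the second (limma adjusted p = 0.000339). In the cytoplasm SNHG5 went from 2.27 and 2.04 to 2.78 and 2.90 (0.40 ± 0.11, limma adjusted p = 0.0102), and the call was lost without the second EGFP library (adjusted p = 0.0610).

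Among the hosts of H/ACA box snoRNAs, DANCR, a repressor of differentiation in epidermal progenitors that holds SNORA26, had the largest change of the 10 in whole cells. Its abundance was 0.411 and 0.384 with EGFP siRNA, against 1.43 and 1.18 with CHERP siRNA (log2 fold change 1.68 ± 0.21, limma adjusted p = 0.000341), and 98.4% of genes tested had a lower log2 fold change. DANCR rests on 2 events with 72 and 77 reads against 289 and 226, and it had no event in the cytoplasmic tables. SNHG15, the host of SNORA9, rose by 0.85 ± 0.11 in whole cells, from 8.85 and 9.17 to 15.3 and 17.2 (limma adjusted p = 0.000368). In the cytoplasm SNHG15 rose by 1.13 ± 0.15, from 1.67 and 1.24 to 2.94 and 3.42 (limma adjusted p = 7.67e-05). SNHG8, the host of SNORA24, was called in the cytoplasm, from 4.08 and 4.17 to 6.90 and 6.55 (0.70 ± 0.08, limma adjusted p = 3.97e-05). In whole cells SNHG8 had 10.3 and 12.1 against 15.3 and 12.7, which did not pass (0.32 ± 0.13, limma adjusted p = 0.0843). That value was 0.19 without the first EGFP library or the first CHERP library, and it was called without the second EGFP library (0.44, limma adjusted p = 0.00495).

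SNHG12 and EPB41L4A-AS1 were called in neither fraction with all libraries. SNHG12, which holds SNORD99 and 3 H/ACA box snoRNAs, had 3.59 and 3.98 against 4.65 and 4.67 in whole cells (0.30 ± 0.13, limma adjusted p = 0.0912) and 1.31 and 1.22 against 1.28 and 1.00 in the cytoplasm (-0.16 ± 0.16, limma adjusted p = 0.428). Without the second EGFP library SNHG12 was called in whole cells (0.38, limma adjusted p = 0.0169). EPB41L4A-AS1, which is transcribed away from EPB41L4A and holds SNORA13, had 0.738 and 0.894 against 0.696 and 0.602 in whole cells (-0.32 ± 0.22, limma adjusted p = 0.274). In the cytoplasm its values were 0.332 and 0.276 against 0.320 and 0.271 (-0.04 ± 0.24), with the groups overlapping. EPB41L4A-AS1 rests on 1 event with a mean of 158 reads in whole cells and 43.3 in the cytoplasm.

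**Figure D1:**
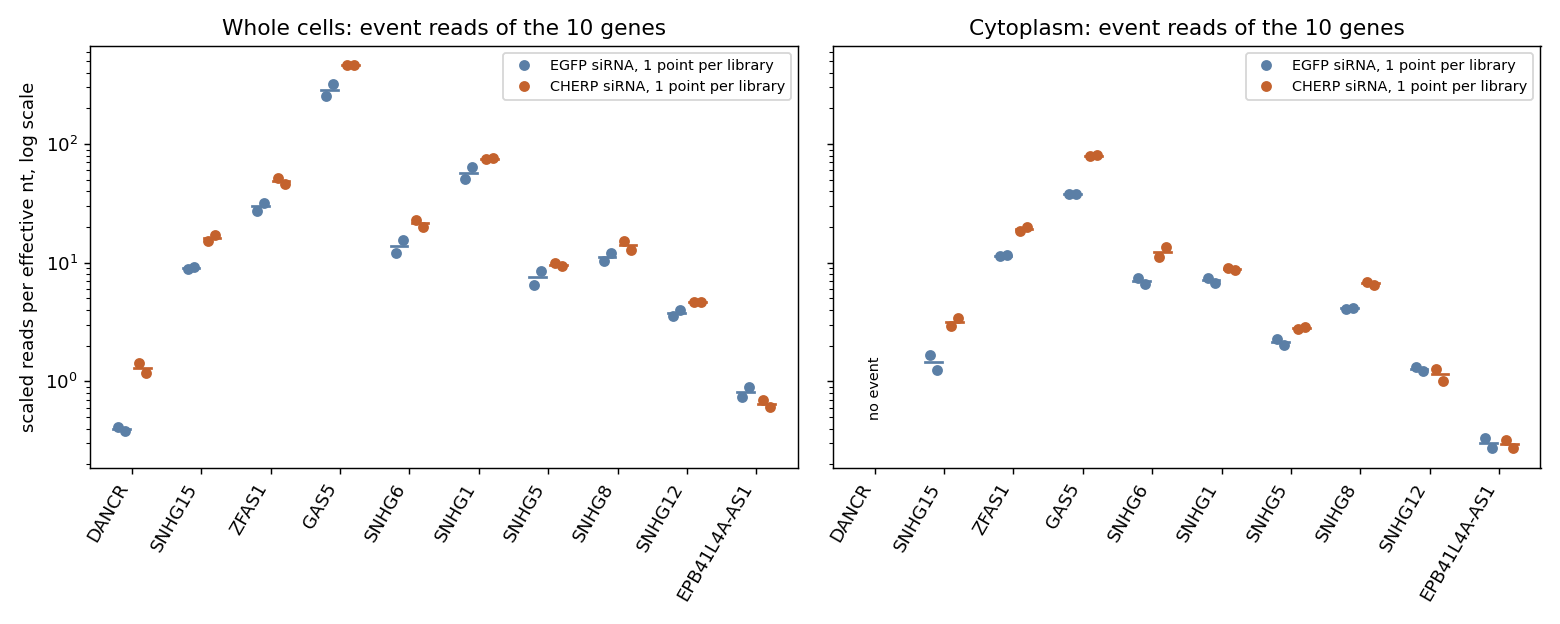
Abundance of the 10 genes per library (scaled reads per effective nucleotide, log axis), with the mean of each siRNA as a bar, in whole cells (left) and the cytoplasm (right), genes ordered by their fold change in whole cells. In whole cells GAS5 rises from 253 and 322 to 460 and 463, and the CHERP points of EPB41L4A-AS1 lie below its EGFP points. A higher abundance was called for 6 of the 10 genes in whole cells.

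Because a gene with many events is counted many times, levels were compared between genes on the 1 SE, A5SS or A3SS event with the most reads, per 1000 nt of effective length. In whole cells with EGFP siRNA the order was GAS5 (12930 and 16549), ZFAS1 (5815 and 6402), SNHG1 (4245 and 5822), SNHG6 (3279 and 4182), SNHG8 (2300.0 and 2531), SNHG5 (1419 and 1826), SNHG15 (1562 and 1619), SNHG12 (764 and 944), EPB41L4A-AS1 (738 and 894) and DANCR (396 and 379). The libraries of ZFAS1 and SNHG1 overlapped, as did those of SNHG5 with SNHG15 and of SNHG12 with EPB41L4A-AS1, so these neighbours were not separated beyond their spread. With CHERP siRNA the DANCR level (1393 and 1157) lay above that of EPB41L4A-AS1 (696 and 602). The levels are those of the largest event and not of a whole gene.

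The change in abundance was not shown to differ between the fractions. No gene of the 10 passed the interaction of siRNA and fraction (limma, adjusted p under 0.05), nor did any of the 7059 genes tested (0%). At an unadjusted p under 0.05 there were 358 genes, 3 of them members. The interaction was 0.38 ± 0.13 on the log2 scale for GAS5 and 0.38 ± 0.16 for SNHG8, larger in the cytoplasm, and -0.46 ± 0.21 for SNHG12 (limma adjusted p = 0.954, 0.955 and 0.969).

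A table of expression estimates for the cytoplasm lists 6757 genes with 2 columns of the authors' mean values, C1 and C2, without naming the siRNA of either. CHERP has means of 209 in C1 and 1685 in C2 there. The mean is higher in C1 for 3934 of the 6757 genes (58.2%). The paper counts 3934 transcripts as increased in the cytoplasm after CHERP depletion. The list may thus hold only genes that passed the authors' own test. All 8 members in it have the higher mean in C1. For DANCR, which the cytoplasmic splicing tables lack, the authors' means are 5522 in C1 and 1768 in C2. For GAS5 they are 3363 and 1663, and for SNHG15 they are 1012.5 and 484. SNHG12 and EPB41L4A-AS1 are not in this list, which therefore gives no value for them.

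In 4 of these genes a short pyrimidine motif lay near the annotated start. Many RNAs of the translation machinery begin with a C followed by a run of pyrimidines, and several snoRNA hosts are known to do the same. RefSeq start regions (GRCh38.p14) were searched for 8 of the 10 genes. In 4 of them CTTT lay on the transcribed strand between 5 bases before and 10 bases after the start. The share was 6.71% among 35116 start regions. Below, the annotated start is base 21 and CTTT is in capitals.
SNHG5: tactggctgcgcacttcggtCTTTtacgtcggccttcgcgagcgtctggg
ZFAS1: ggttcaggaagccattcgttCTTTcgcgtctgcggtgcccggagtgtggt
SNHG12: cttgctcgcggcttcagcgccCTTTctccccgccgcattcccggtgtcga
SNHG8: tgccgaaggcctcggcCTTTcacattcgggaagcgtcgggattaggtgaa
CTTT begins at the annotated start in SNHG5 and ZFAS1. In SNHG12 it begins at the next base, and in SNHG8 it ends before the start. The 4 genes with this match include SNHG12, whose abundance was called in neither fraction. GAS5, SNHG1, DANCR and EPB41L4A-AS1 had no CTTT in the window around the annotated start. Other pyrimidine runs after a C were not searched for, and the annotated start of SNHG1 reads ctcattttt. The search therefore does not show that these genes lack such a run.

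Splicing was then compared event by event as the inclusion level, that is the fraction of a gene's local RNA that carries the exon or intron, with reads corrected for the length of either form. In whole cells 21 of the 370 events of these genes passed a false discovery rate (FDR) of 0.05 in a quasi-binomial test, against 1.12% of all 89379 events. Many events share reads. The test took its spread from all events of a type at like depth. The gap between an event's own duplicates did not enter its FDR. Members had a median of 270 reads per SE event and 1127.5 per intron retention event. The shares over all events, here and below, were not matched for depth. The 21 calls lay in GAS5 (11), SNHG1 (5), SNHG8 (3), SNHG6 (1) and ZFAS1 (1). DANCR, SNHG5, SNHG12, SNHG15 and EPB41L4A-AS1 had no event past the threshold. A test by limma on the log2 odds of inclusion called no event of any gene in whole cells, with 31 member events at an unadjusted p under 0.05. Without the second EGFP library 11 of the 21 were kept, and without either CHERP library 7 and 6. Leaving out the first EGFP library gave 27 calls, 17 of them among the 21. Both retained introns of GAS5 and the SNHG6 exon below were called without each library in turn.

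Intron retention (RI) was called lower at 2 introns of GAS5 and 1 of SNHG1. Of 19 retained intron events in whole cells, 3 passed and all 3 were lower with CHERP siRNA, against 1.88% of 3717 events of all genes lower. The inclusion level of the GAS5 524 nt intron was 0.212 and 0.265 with EGFP siRNA, against 0.134 and 0.143 with CHERP siRNA (FDR = 1.16e-23). GAS5 intron 7, printed above, went from 0.348 and 0.376 to 0.224 and 0.245 (FDR = 6.32e-13). SNHG1 intron 5 went from 0.312 and 0.277 to 0.211 and 0.230 (FDR = 0.0422), and its call was lost without any 1 of 3 libraries, the first EGFP library and each CHERP library. It was also lost with the dispersion taken from events whose rarer form had 10 reads or more (FDR = 0.0815). In all 3 the CHERP libraries lay below both EGFP libraries. An A3SS event whose long form holds SNHG1 intron 5 went the other way. Its mean level was 0.580 with EGFP siRNA and 0.666 with CHERP siRNA in whole cells, and it did not pass.

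The other short introns of GAS5 moved less. The introns of 193, 282, 188, 227 and 179 nt had inclusion levels between 0.0505 and 0.236 with EGFP siRNA and lower means with CHERP siRNA, with FDR between 0.147 and 0.471. The 181 nt intron, printed above, had 0.0965 and 0.0986 with EGFP siRNA, against 0.0991 and 0.111 with CHERP siRNA (FDR = 0.859). In SNHG1 the 194 nt intron had 0.130 and 0.131 against 0.134 and 0.143 (FDR = 0.9005). The only RI event of SNHG5, a 78 nt intron, had 0.148 and 0.113 against 0.0888 and 0.135 (FDR = 0.846), with overlapping groups. In SNHG12 the 324 nt intron had 0.758 and 0.778 against 0.688 and 0.688 (FDR = 0.636), and those of 354 and 578 nt had FDR of 0.471 and 0.842. The RI events that span annotated exons, 370 and 924 nt in GAS5, 712 nt in SNHG1 and 972 nt in SNHG12, and the 168 nt variant of SNHG1 intron 5 had inclusion levels of 0.735 and above in every library and did not pass.

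A lower inclusion level can come from fewer intron reads or from more spliced reads, so the forms were put side by side per library, as scaled reads per 1000 nt of effective length (a description, with no test). At GAS5 intron 7 the intron-containing form was at 2721 and 3859 with EGFP siRNA, against 2996 and 3353 with CHERP siRNA, with overlapping groups. The spliced form was at 5107 and 6396 against 10404.5 and 10322. At the 524 nt intron the intron-containing form was at 2107 and 3263 against 2286 and 2589, and the spliced form at 7854 and 9062 against 14832 and 15459. At both introns the spliced form differed in level between the siRNAs and the intron-containing form did not separate them.
At SNHG1 intron 5 the ratio of CHERP to EGFP siRNA was 1.56 for the spliced form and 1.07 for the intron-containing form. Across the 8 introns of GAS5 with no annotated exon inside, the ratio was between 1.42 and 1.83 for the spliced form and between 0.908 and 1.56 for the intron-containing form. The 181 nt intron of GAS5 was the one where the intron-containing ratio (1.53) was above the spliced ratio (1.42). Reads of a snoRNA within an intron would count toward the intron-containing form, and their part was not tested.

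**Figure D2:**
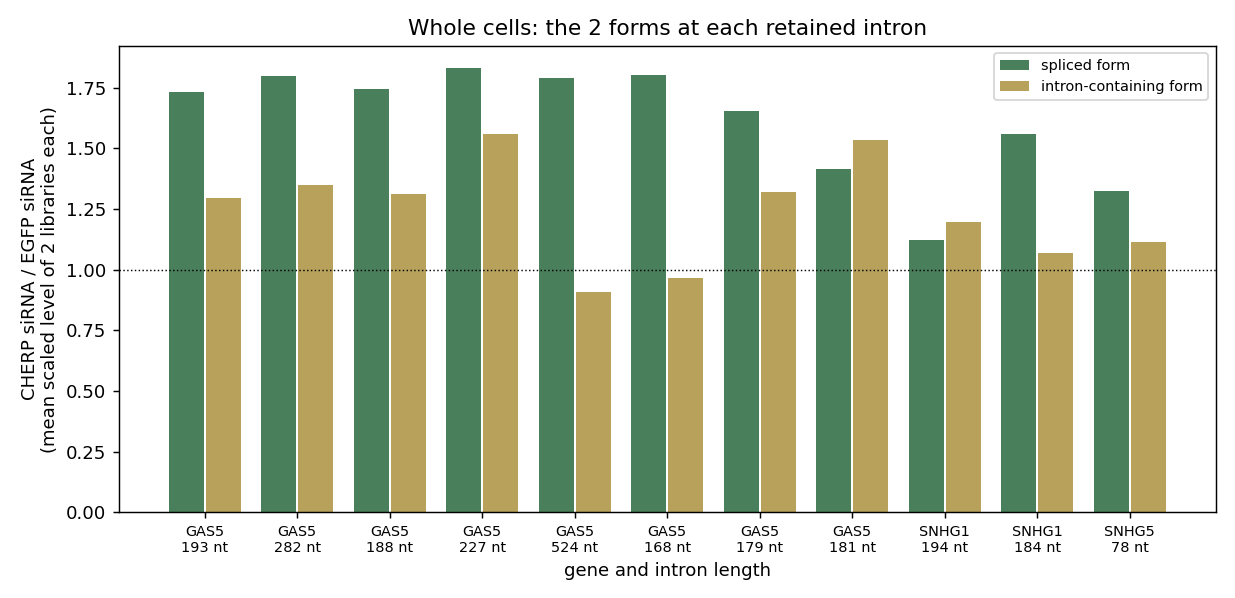
Ratio of the mean scaled level with CHERP siRNA to that with EGFP siRNA (2 libraries each) in whole cells, for the spliced form and the intron-containing form of each retained intron with no annotated exon inside in GAS5, SNHG1 and SNHG5, ordered 5′ to 3′ within a gene, where the spliced form had a mean of at least 10 reads. The spliced bars of GAS5 lie between 1.42 and 1.83, and the intron-containing bars of the 524 nt and 168 nt introns lie at 0.908 and 0.965.

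An exon of SNHG1 was included more often after CHERP siRNA. In SNHG1 the 47 nt exon just upstream of intron 5 (chr11:62621490-62621536) went from 0.671 and 0.669 to 0.766 and 0.786 (FDR = 0.00890). It is shown with 2 intron bases on each side and the exon in capitals.
SNHG1 47 nt exon: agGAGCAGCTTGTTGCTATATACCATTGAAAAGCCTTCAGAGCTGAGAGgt
This is 1 of the 6 SE events that passed among 171 in these genes, against 0.893% of all 63977 SE events. The call was lost when any 1 of 3 libraries was left out, the second EGFP library and each CHERP library.

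Exons of SNHG6 and ZFAS1 were included less often after CHERP siRNA. In SNHG6 the 112 nt exon, in 5 of 8 annotated transcripts, was included at 0.898 and 0.888 with EGFP siRNA, against 0.763 and 0.738 with CHERP siRNA (FDR = 2.00e-07). Its skipping reads were 44 and 70 with EGFP siRNA, against 235 and 226 with CHERP siRNA. With another downstream exon the same 112 nt exon was included at 0.967 and 0.955 against 0.994 and 1, in the opposite direction, and did not pass (FDR = 0.246). In ZFAS1 the 62 nt exon on chromosome 20 (chr20:47897440-47897501, plus strand), in 6 of 14 annotated transcripts, fell from 0.627 and 0.581 to 0.513 and 0.535 (FDR = 0.0122).
ZFAS1 62 nt exon: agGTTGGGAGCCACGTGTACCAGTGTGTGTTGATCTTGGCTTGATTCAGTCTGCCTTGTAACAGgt
The ZFAS1 call was lost without the first EGFP library or either CHERP library.

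SNHG8 had 3 calls on overlapping pieces of 1 region (chr4:119199864-119200292, plus strand). The 429 nt long form of the exon in its A5SS event was included at 0.472 and 0.274 with EGFP siRNA, against 0.497 and 0.578 with CHERP siRNA (FDR = 2.26e-06), the only call among 24 A5SS events of these genes, against 1.16% of 3268 in all. The EGFP libraries lay further from each other than the first lay from the CHERP libraries. The exons of 194 nt and 31 nt within this region were included at 0.428 and 0.258 against 0.453 and 0.521, and at 0.262 and 0.181 against 0.365 and 0.351. All 3 SNHG8 calls were lost without the second EGFP library (FDR = 0.931 for the A5SS event and 0.915 for both exons) and without the second CHERP library (FDR = 0.0878 for the A5SS event, 0.349 and 0.196 for the exons of 194 and 31 nt), and that of the 31 nt exon also without the first CHERP library (0.707). The A5SS call was also lost with the dispersion taken from events whose rarer form had 10 reads or more (FDR = 0.344), and its difference of 0.165 was 0.264 without the first EGFP library and 0.0654 without the second. The 31 nt exon is printed with 2 intron bases on each side.
SNHG8 31 nt exon: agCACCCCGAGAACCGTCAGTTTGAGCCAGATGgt

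**Figure D3:**
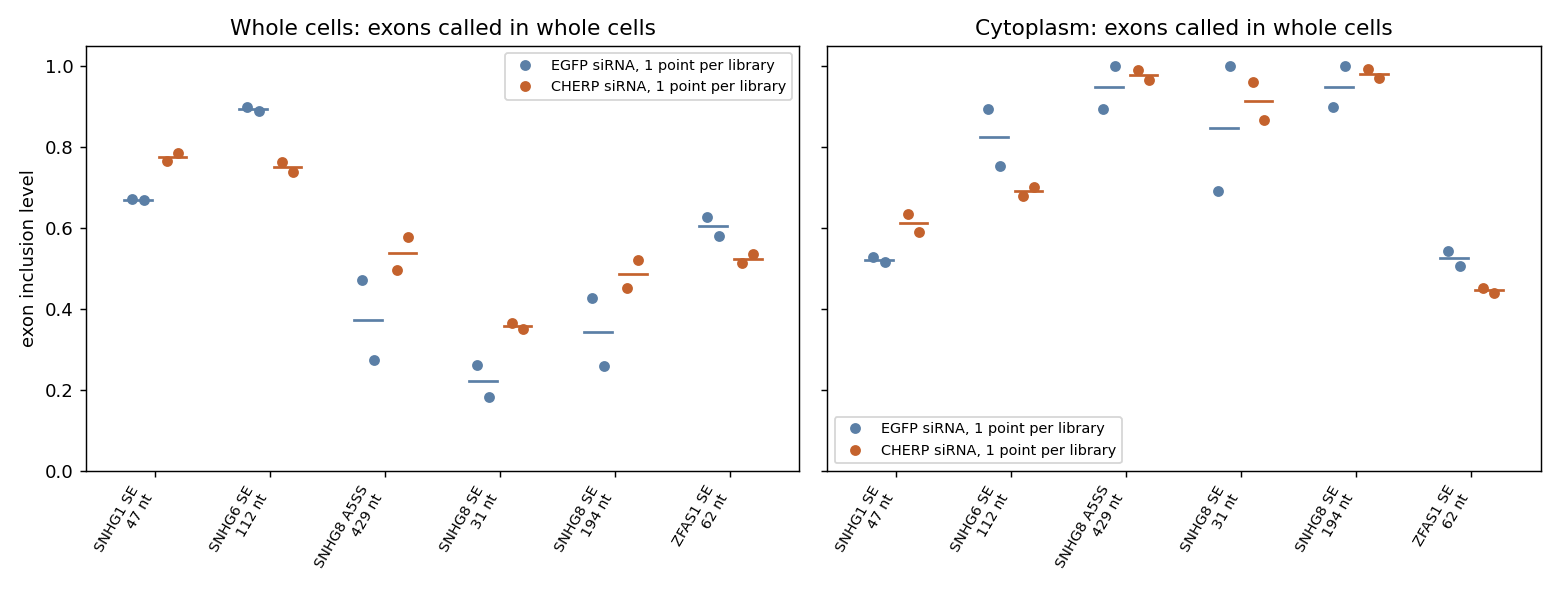
Inclusion level per library, with the mean of each siRNA as a bar, of 6 SE and A5SS exons that passed in whole cells, shown for whole cells (left) and the cytoplasm (right). The SNHG6 exon lies at 0.898 and 0.888 with EGFP siRNA, against 0.763 and 0.738 with CHERP siRNA in whole cells, and the SNHG8 exons lie higher in the cytoplasm than in whole cells.

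The other 11 calls were mutually exclusive exon (MXE) events, 8 in GAS5 and 3 in SNHG1 of 131 tested, against 1.6% of 13501 in all genes. On the minus strand, where both genes lie, the inclusion form of these tables holds the second exon by coordinate, as the effective lengths showed in all 4871 events of whole cells where exon lengths decided it. In 7 of the GAS5 events the other exon or the inclusion exon is a piece that holds a whole intron (the introns of 168, 524 or 193 nt), and the form with that piece was lower with CHERP siRNA in all 7. An example is the 269 nt piece from 173835666 to 173835934, which holds the 193 nt intron, set against the exon from 173835315 to 173835344. The form with the piece was at 0.254 and 0.281 with EGFP siRNA, against 0.163 and 0.212 with CHERP siRNA (FDR = 0.00115). This call was lost without the second EGFP library (FDR = 0.149) and without the first CHERP library (FDR = 0.804). The events share reads with the RI events and are no separate measurement. Against other forms the 221 nt GAS5 piece that holds the 168 nt intron was higher with CHERP siRNA, without passing. Its mean level in whole cells went from 0.860 to 0.899 in an A5SS event and from 0.962 to 0.989 in an SE event.
In SNHG1 all 3 events include the 33 nt exon from 62621991 to 62622023, and its form was higher with CHERP siRNA in each. Against the exon from 62622360 to 62622410 it went from 0.317 and 0.235 to 0.400 and 0.439 (FDR = 0.000878). Against the exon from 62621024 to 62621062 it had 0.481 and 0.293 with EGFP siRNA, against 0.467 and 0.563 with CHERP siRNA (FDR = 0.0125), where the groups overlapped. All 3 calls were lost without the second EGFP library and without the second CHERP library, and the one against the exon from 62621273 to 62621305 also without the first CHERP library. With the dispersion taken from events whose rarer form had 10 reads or more, the calls against the exons from 62621024 and from 62621273 were lost (FDR = 0.164 and 0.129).

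In the cytoplasm none of the 148 events passed the quasi-binomial test, against 0.416% of 43559 in all, with 8 at an unadjusted p under 0.05. Limma on the log2 odds also called none, with 14 at an unadjusted p under 0.05. Members had a median of 116 reads per SE event there against 270.0 in whole cells. The SNHG6 exon had 0.895 and 0.753 against 0.680 and 0.702, and the ZFAS1 exon 0.544 and 0.506 against 0.451 and 0.440 (FDR = 0.385). The SNHG1 47 nt exon had 0.528 and 0.516 against 0.635 and 0.589. The CHERP libraries lay on the same side of the EGFP libraries as in whole cells for these 3 exons. For the SNHG8 A5SS event the groups overlapped in the cytoplasm (0.895 and 1 with EGFP siRNA, against 0.991 and 0.967 with CHERP siRNA).
No member event passed the interaction of siRNA and fraction, against 0.0327% of 33608 shared events, with 3 at an unadjusted p under 0.05.

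The introns called in whole cells were scarce in the cytoplasm. Of the 12 member RI events found in both fractions, 10 were lower in the cytoplasm than in whole cells with EGFP siRNA (quasi-binomial test with an offset for form length), against 25.1% of 1599 in all genes, and none was higher. The GAS5 924 nt, SNHG1 168 nt and SNHG12 354 nt events were not scarce there, with mean levels of 0.653, 0.689 and 0.285 with EGFP siRNA. They rest on means of 4.5, 3.75 and 6.75 cytoplasmic reads. GAS5 intron 7 had an inclusion level of 0.0176 and 0.0144 in the cytoplasm with EGFP siRNA, against 0.348 and 0.376 in whole cells (FDR = 7.53e-52). The GAS5 524 nt intron had 0.00145 and 0.00138 against 0.212 and 0.265 (FDR = 7.17e-96). SNHG1 intron 5 had 0.0486 and 0.0147 against 0.312 and 0.277 (FDR = 9.03e-12). With CHERP siRNA all 12 were lower in the cytoplasm, against 32.1% in all genes. With CHERP siRNA the cytoplasmic level of GAS5 intron 7 was 0.00313 and 0.00846, also below both EGFP libraries (FDR = 0.326).

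**Figure D4:**
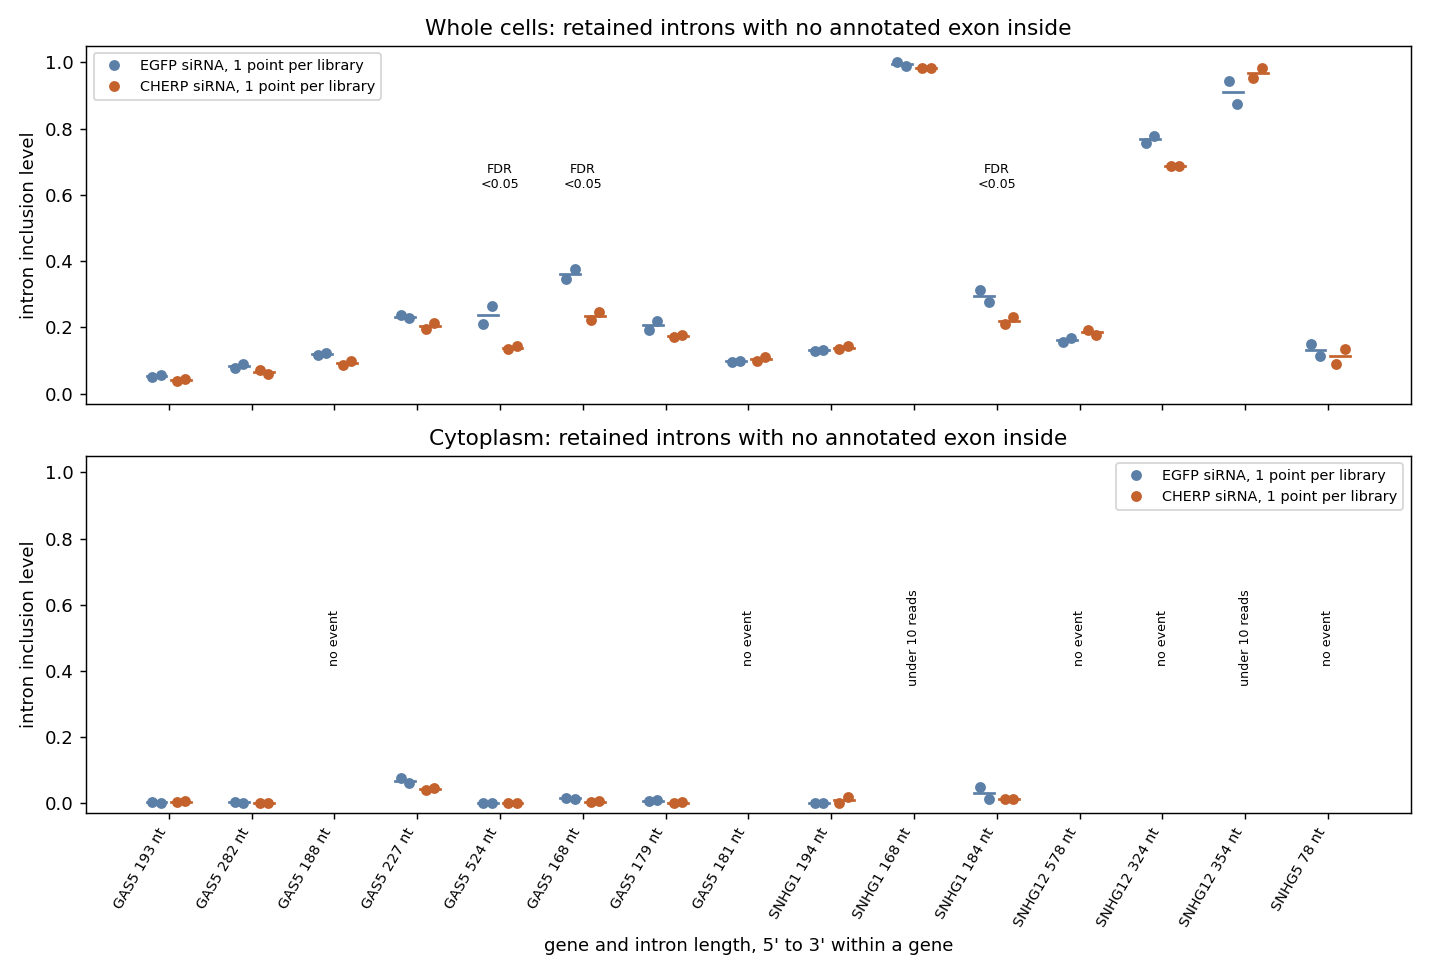
Intron inclusion level per library, with the mean of each siRNA as a bar, of the 15 retained introns with no annotated exon inside, in whole cells (top) and the cytoplasm (bottom), ordered 5′ to 3′ within a gene. The 3 introns that passed in whole cells are marked, and the GAS5 524 nt intron lies at 0.212 and 0.265 with EGFP siRNA in whole cells and at 0.00145 and 0.00138 in the cytoplasm.

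Exons differed between the fractions as well. The long form of the SNHG8 A5SS event had an inclusion level of 0.895 and 1 in the cytoplasm with EGFP siRNA, with 5 and 0 skipping reads, against 0.472 and 0.274 in whole cells (FDR = 1.10e-18). The SNHG8 exons of 194 and 31 nt were higher in the cytoplasm too, by 0.606 and 0.624 on the mean inclusion level (FDR = 8.71e-23 and 2.19e-06). In SNHG1 an A3SS event that joins the 47 nt exon and intron 5 to the next exon was lower in the cytoplasm (mean inclusion level 0.142 against 0.580, FDR = 6.59e-16). In ZFAS1 the 86 nt exon upstream of the 62 nt exon was lower as well (0.740 against 0.869, FDR = 0.000211). Over all event types 35 of the 121 shared member events differed between the fractions with EGFP siRNA, against 6.26% of 33608 in all genes. The event types have other weights in these sets. Of 29 member MXE events 8 were lower and 8 higher in the cytoplasm, against 459 and 505 of 2908 in all genes. Of 51 member SE events 2 were lower and 3 higher, against 207 and 231 of 23893.

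Other hosts were compared from lists of names, and the genes of these lists named here were picked after their values were seen. Of 11 further noncoding snoRNA hosts, 5 had events, and SNHG16 rose in whole cells (0.57 ± 0.11, limma adjusted p = 0.00378) while the other 4 did not pass (median log2 fold change 0.29 over the 5, 0.26 in the cytoplasm). In the cytoplasm SNHG17 rose by 0.43 ± 0.15 (limma adjusted p = 0.0394) and SNHG14 fell by 0.76 ± 0.28 (limma adjusted p = 0.0409) on the log2 scale. Of 25 protein-coding snoRNA hosts, 3 rose and 3 fell in whole cells with a median log2 fold change of -0.02, and 9 rose and 5 fell in the cytoplasm with a median of 0.08. Of all genes tested, 18.8% rose and 18.4% fell in whole cells, and 24.6% rose and 23.6% fell in the cytoplasm. NCL, the nucleolar protein nucleolin, fell by 0.90 ± 0.10 in whole cells (limma adjusted p = 0.000186), and GNB2L1, a ribosomal scaffold protein, rose by 0.43 ± 0.09 (limma adjusted p = 0.00530).

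Among 14 genes of NMD, 4 fell and 1 rose in whole cells, and of the 12 measured in the cytoplasm the counts were 4 and 2. Over all genes 18.4% fell and 18.8% rose in whole cells, and 23.6% fell and 24.6% rose in the cytoplasm. The median log2 fold change was 0.03 in whole cells and -0.15 in the cytoplasm. UPF3B, which links NMD to the exon junction complex, had an abundance of 2.86 and 3.80 with EGFP siRNA, against 1.09 and 0.954 with CHERP siRNA in whole cells (-1.68 ± 0.18, limma adjusted p = 0.000145). UPF2, the adaptor between UPF1 and UPF3 proteins, went from 16.2 and 17.4 to 8.31 and 8.99 (-0.96 ± 0.11, limma adjusted p = 0.000180). UPF3A and SMG9 also fell in both fractions. SMG5, which recruits the RNA-degrading machinery to NMD targets, rose by 0.38 ± 0.11 in whole cells and 0.32 ± 0.11 in the cytoplasm (limma adjusted p = 0.0233 and 0.0313). SMG6, the endonuclease of NMD, rose in the cytoplasm from 0.0869 and 0.0742 to 0.176 and 0.161 (0.98 ± 0.31, limma adjusted p = 0.0220), and had 0.36 ± 0.17 in whole cells, which did not pass. UPF1, the helicase of the pathway, had a log2 fold change of -0.02 ± 0.19 in whole cells and -0.13 ± 0.15 in the cytoplasm and passed in neither. The part of these genes in the abundance of the snoRNA hosts was not tested.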

How the data were processed

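Poly(A) RNA of U2OS whole cells and cytoplasm was sequenced in 8 libraries. Per the labels and the study's methods, the authors mapped reads to hg19 with STAR 2.5.2b, estimated expression with RSEM 1.2.25 on GENCODE, compared it with EBSeq and called splicing events with rMATS, whose version is not given in the sources used here. The 10 deposited splicing tables hold reads on the inclusion and the skipping form in 2 libraries per siRNA, joined in 1 cell without replicate numbers; the first and second library are named here by that order. Their p-values, FDR and 20 columns of inclusion levels, and the posterior and fold change columns of the expression table, were not used.

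Inclusion was tested per event by a quasi-binomial test with a moderated Pearson dispersion (limma 3.58.1, R 4.3.3, floor 1) adjusted by Benjamini-Hochberg over each event type. In the tests between the siRNAs the moderation was complete. Each event took the dispersion of the trend at its read depth, and its own duplicate spread did not enter. Abundance was tested by limma on log2(value + 0.01), keeping genes that averaged 20 reads or more per library. Fold changes are on that scale. Scripts were tested on simulated data. Sequences were read from GRCh37, where 97.8% of 1197 deposited retained introns had GT and AG ends. Each gene, up to 15 events per fraction past the threshold by size of difference and the RI events with at least 10 reads were named, with the largest event of each gene. The genes and lists were chosen with earlier results of these data known. Alternatives are in the closing section. An exon past the threshold is not reported here.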

Additional observations from a re-analysis of the deposited data

How the results depend on the processing

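No paired analysis was possible because the tables hold both libraries of a group in 1 cell without a replicate number. In whole cells the 21 member events called became 0 with limma on log2 odds, a test that called 0 events of any gene, and ranged from 6 to 27 when a library was left out. The other settings in whole cells gave 19 to 27 calls. With the dispersion taken from events whose rarer form had 10 reads or more, 16 of the 21 were among the 19. With a minimum of 10 or 50 reads all 21 were kept. In the cytoplasm the count of 0 became 1, the ZFAS1 62 nt exon, with the dispersion taken from events whose rarer form had 10 reads or more. The 6 members called in abundance in whole cells stayed at 6 under 7 other settings and ranged from 5 to 9 without 1 library, and the 7 of the cytoplasm stayed at 7 and ranged from 6 to 7. Of 376 values of single genes and events under the alternatives, 72 lost their call, 3 gained one and 0 changed direction with a call. Duplicates, shared reads between events and the depth of the cytoplasm limit these comparisons.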
